A study of Mus musculus with 12 samples.

Results

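The proteasome is the protease complex that degrades proteins tagged with ubiquitin. In mouse hippocampal RNA, 45 of the 24590 genes listed in any library carried a symbol of a proteasome subunit or regulator (Psma, Psmb, Psmc, Psmd or Psme followed by a number), after 4 pseudogenes had been left out. They comprised 7 alpha and 7 beta subunits of the constitutive core, 3 immunoproteasome subunits, 2 tissue-specific core subunits, 6 ATPases, 11 non-ATPase subunits, 3 assembly chaperones and 5 activators. The remaining gene, Psmc3ip, matches by its symbol only: it encodes a partner protein in meiotic recombination, is no proteasome subunit and is given apart.

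The hippocampi came from 12 mice of 2 Shank2 lines, which differ in the deleted part of this gene of a scaffold protein of excitatory synapses. In the exon 6-7 line, from which exons 6 and 7 are deleted, 3 wild-type (WT778, WT809 and WT865) and 3 knockout mice (KO776, KO777 and KO864) were measured. In the exon 7 line, from which exon 7 is deleted, 3 wild-type (WT628, WT993 and WT999) and 3 knockout mice (KO969, KO990 and KO994) were measured. The strain of all 12 is labelled as mixed C57BL/6J and C57BL/6N. The labels' protocol, written for the behavioural experiments, describes males aged 8 to 15 weeks with wild-type littermates, and no treatment is given. The labels name no promoter or cell type that would restrict a deletion. Each wild-type group served as control of its own line, and values below are always given in the order of the mice just listed.

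The barrel-shaped core is built of rings of alpha subunits, which gate the entry, and rings of beta subunits, which hold the proteolytic sites. A regulatory particle with an ATPase ring, scaffold subunits, ubiquitin receptors and a deubiquitinase caps the barrel and feeds unfolded substrate into it. In cells exposed to interferon gamma, the catalytic subunits are replaced by immunoproteasome counterparts that favour peptides for antigen presentation. At synapses the proteasome is known for the turnover of postsynaptic scaffold proteins during plasticity.

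Values are FPKM (fragments relative to transcript length and to all mapped fragments) scaled between libraries, and they hold no read counts and no depth. Levels of different genes depend on that length correction, and differences between the lines moved with transcript length, as given below. Each library listed 19515 to 20334 genes. Shank2 stood at 13.8 to 14.9 scaled FPKM in the wild types and at 6.15 to 7.02 in the knockouts of the exon 6-7 line. Exon 7 mice showed 36.0 to 44.1 in wild types and 33.2 to 44.6 in knockouts, and a value for the whole gene does not show whether 1 exon is missing there. In 4 libraries, 1 per group (mice WT778, KO776, WT628 and KO969), the gene ENSMUSG00000095746 was not listed, while it stood at 218 to 435 FPKM as deposited in the other 8. These 4 are called set A and the others set B, and medians of the proteasome genes are also given within each set. Choroid plexus markers summed to 41.9 scaled FPKM in mouse WT865 of the exon 6-7 line, against up to 8598 in its group. Neuronal markers were present in all libraries (8 of 8 listed, sums of 1192 to 1889). The values come from whole hippocampi, so that fewer cells of a type and less RNA per cell cannot be told apart.

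Proteasome genes were abundant. The 44 subunits and regulators together made up 0.702% ± 0.012 of the summed FPKM in the exon 6-7 wild types, 0.672% ± 0.015 in the exon 6-7 knockouts, 0.423% ± 0.019 in the exon 7 wild types and 0.435% ± 0.0053 in the exon 7 knockouts (SD, n = 3 each). The knockouts of the exon 6-7 line ranged from 0.655 to 0.685%, below the lowest wild type of that line. The highest value in the exon 7 line was 0.441%. The median level differed by role, but genes of different roles overlapped. Group means ran from 34.9 to 191 for core alpha and from 8.65 to 55.6 for the activators in the exon 6-7 wild types. In the exon 6-7 wild types the median group mean was 113 scaled FPKM for core alpha, 165 for core beta, 111 for the ATPases, 90.8 for the non-ATPase subunits, 16.3 for the assembly chaperones and 19.9 for the activators. Subunits that occupy equal numbers of places in the same complex thus did not have equal FPKM. The highest core alpha mean was 5.49 times the lowest in these mice, and the highest core beta mean 1.95 times the lowest. In the exon 7 wild types these ratios were 3.20 and 2.03. Within a group, the mice were close to each other for most genes. The largest of the 4 within-group SDs of a gene was 10.8% of the mean in the median over the 42 genes tested, and it ranged from 4.70 to 38.7%.

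**Figure D1:**
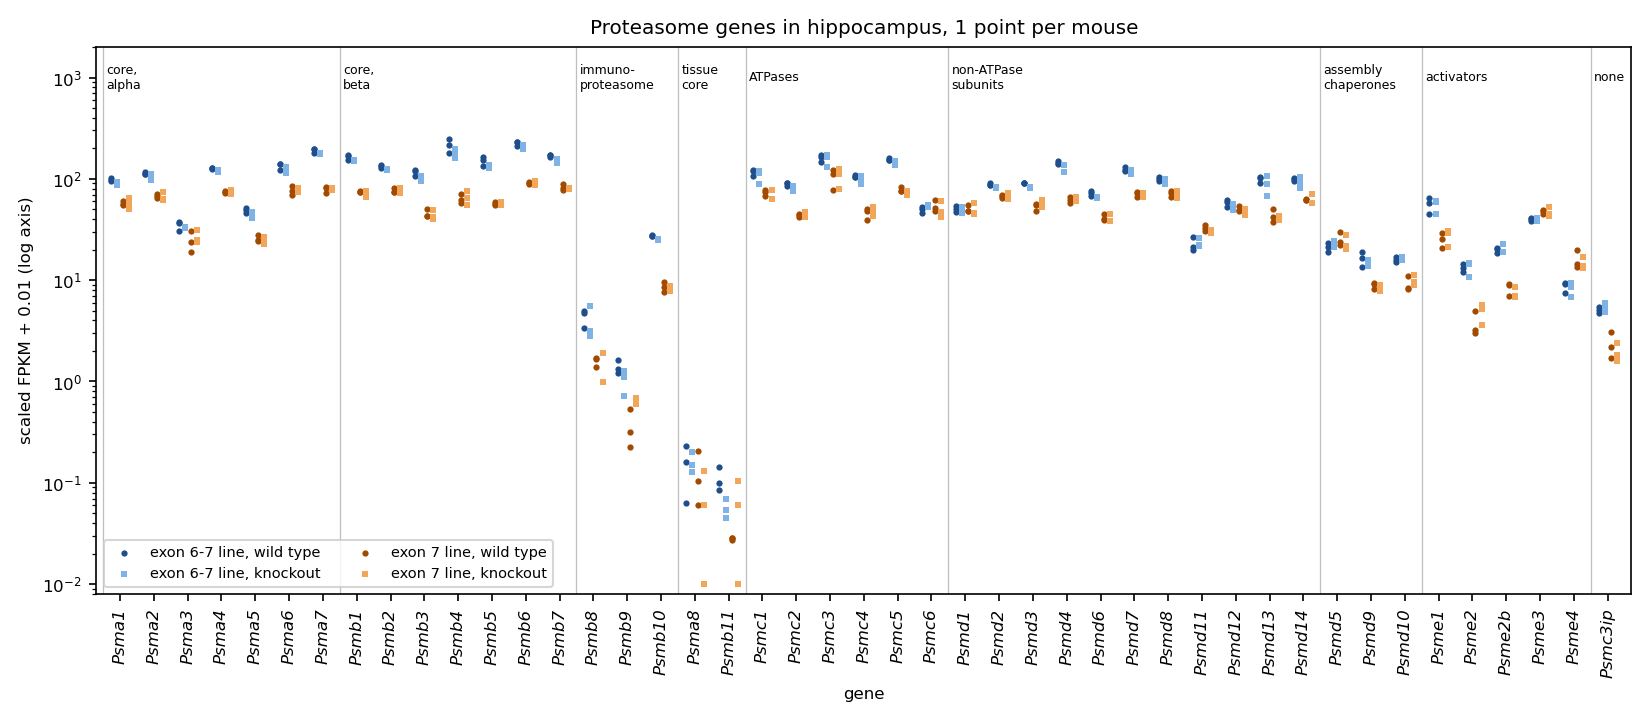
Scaled FPKM (log axis, with 0.01 added so that genes listed at 0 can be drawn) of the 45 proteasome genes in each of the 12 mice, ordered by role; circles are wild types and squares knockouts, blue the exon 6-7 line and orange the exon 7 line. Most core and regulatory genes lie between 20 and 250 in the exon 6-7 line and lower in the exon 7 line, while Psmb8 and Psmb9 lie below 6 and the tissue-specific Psma8 and Psmb11 below 1 in all mice.

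Tests ran over the 14213 genes whose mean reached 1 FPKM, on log2(scaled FPKM + 1) with limma, and a gene is said to have changed where its Benjamini-Hochberg adjusted p was below 0.05. The pseudocount of 1 understates the fold change of low genes. Of the 45 genes 42 entered. Psmb9, Psma8 and Psmb11 were below the filter. Differences are log2 values ± SE.

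In the exon 6-7 line, 0 of the 42 proteasome genes changed with the knockout, and 0.0141% of all genes tested did (2 genes). Without adjustment, 2 proteasome genes and 583 of all genes (4.10%) had p below 0.05. The values of the proteasome genes nevertheless lay to one side: the median difference of knockout minus wild type was -0.11 over the 42 genes, -0.13 over the 14 core subunits and -0.09 over the 25 regulatory genes, against -0.0020 over all genes tested. The difference was below 0 for 14 of 14 core subunits and 19 of 25 regulatory genes, and for 50.6% of all genes. In 14 of the 42 the 3 knockouts all lay below the 3 wild types, a separation that 6.31% of all genes showed. In 0 of the 42 they all lay above, as did 5.01% of all genes. The 14 were measured in the same 6 libraries and are not separate observations.

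Core beta subunits had the lowest median of this comparison, -0.18. Psmb5, which carries the chymotrypsin-like activity, stood at 165, 155 and 135 scaled FPKM in the wild types and 138, 129.7 and 127 in the knockouts. The lowest wild type lay below the highest knockout, and the difference was -0.20 ± 0.085 (limma, unadjusted p = 0.0397, adjusted p = 0.9998). Psmb7, which carries the trypsin-like activity, stood at 173, 165 and 173 in the wild types and 157, 143 and 153 in the knockouts. Here the groups did not overlap, with a difference of -0.18 ± 0.074 (limma, unadjusted p = 0.0344, adjusted p = 0.9998). Psmb6, which carries the caspase-like activity, stood at 232, 232 and 213 in the wild types and at 215, 198 and 196 in the knockouts. Mouse KO776 lay above mouse WT865, and the difference was -0.15 ± 0.075. Among the subunits without a proteolytic site, Psmb3 stood at 121, 119 and 106 against 106, 103 and 95.1, the lowest Psmb mean of the core. Its groups were apart by less than 1 unit of FPKM at their nearest, and the difference was -0.19 ± 0.10. Psmb4 had the largest core difference, -0.23 ± 0.14, and the widest spread, with wild types at 245, 216 and 179.9 and knockouts at 199, 186 and 160.2. Its ranges overlapped.

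Core alpha subunits had a median of -0.11, with values from -0.14 (Psma1) to -0.08 (Psma3). Psma7, the most abundant alpha subunit, stood at 199, 196 and 179.7 in the wild types and 176, 178 and 176 in the knockouts, without overlap. No test compared the classes, and within set A the medians of core alpha and core beta were -0.18 and -0.17. Psma3, the least abundant, stood at 37.4, 36.5 and 30.6 against 32.9, 32.3 and 33.5, with the knockouts inside the wild-type range. The other separated core genes were Psma1, Psma4, Psmb1 and Psmb2.

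Of the ATPases, which unfold substrates, Psmc2 and Psmc5 were lower in all knockouts than in all wild types. Psmc2 stood at 90.5, 91.2 and 85.7 against 75, 84.7 and 82.1, a difference of -0.14 ± 0.080. Psmc5 stood at 154, 162 and 155 against 136, 149.8 and 148, a difference of -0.12 ± 0.076. Psmc6, the lowest ATPase by mean, went the other way, 0.10 ± 0.13, with overlapping groups at 50.6, 46.0 and 53.2 against 54.7, 53.0 and 53.1. Of the non-ATPase subunits, Psmd2 (a scaffold of the base), Psmd4 (a ubiquitin receptor), Psmd3 and Psmd6 (both of the lid) were separated. Psmd3 stood at 90.3, 90.3 and 91.8 in the wild types and 83.5, 81.8 and 80.6 in the knockouts, a difference of -0.15 ± 0.087 with a narrow spread in both groups. The assembly chaperones Psmd5 and Psmd10 and the activators Psme2b and Psme2 had differences above 0, of 0.10, 0.03, 0.10 and 0.0038. Psmd5, the highest of the chaperones by mean, stood at 18.8, 21.1 and 23.1 in the wild types and 21.3, 21.7 and 24.4 in the knockouts, and Psmd9, the lowest, at 18.9, 16.6 and 13.4 against 13.7, 15.9 and 13.7. None of these passed the test either, and Psmc3ip gave 0.05.

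The direction of the core median was the same in both library sets. It was -0.17 in set A (1 mouse against 1) and -0.13 in set B (2 against 2), while the ATPase median was -0.20 in set A and -0.06 in set B. The knockout of set A, KO776, had the lowest ATPase level of its line, with a median deviation of -0.17 from the mean of the line's 6 libraries. Over 18 alternative settings, among them the omission of each mouse, the core median lay between -0.16 and -0.05, the smallest size coming from quantile normalization. The median over all genes there was 0.0056. The regulatory median, -0.09, was smaller in size without mouse KO776 (-0.033, 17 of 25 below 0) and with quantile normalization (-0.019, 15 of 25). As TPM it was -0.039 (16 of 25), where the median over all genes was itself 0.050. The regulatory median minus that of all genes was -0.089 as TPM, against -0.092 in the main fit. Marker lists of other cells pointed in both directions in these knockouts. Markers below and above 0 numbered 5 and 3 for hippocampal neurons, 4 and 2 for endothelium and 3 and 2 for astrocytes. For interneurons they numbered 4 and 0, and for blood 0 and 3. The 4 lists given next with their sums each had all markers on 1 side of 0. Summed oligodendrocyte markers ranged from 5070 to 6382 scaled FPKM in the wild types and from 4463 to 4612 in the knockouts of this line, with 6 of 6 markers below 0 (median -0.38). Summed microglial markers ranged from 373 to 419 and from 327 to 379.5, with 12 of 12 below 0 (median -0.17). Summed meningeal markers were higher, from 42.5 to 50.7 in the wild types and from 59.4 to 64.6 in the knockouts, with 5 of 5 above 0 (median 0.51). Choroid plexus markers had 6 of 6 above 0 (median 1.41). Their sums ran from 41.9 (mouse WT865) to 8598 in the wild types and from 6715 to 8395 in the knockouts, inside the wild-type range. No marker of these 4 lists was at 0 in any library or passed the test, and their part in the proteasome values was not tested.

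In the exon 7 line 0 of the 42 proteasome genes changed, as did 0% of all genes tested (492 genes had an unadjusted p below 0.05, 0 of them proteasome genes). The median difference was -0.02 over the 42 genes, 0.0038 over the core and -0.02 over the regulatory genes, against -0.0083 over all genes. Of the 14 core subunits 7 lay below 0 and 7 above, while 1 lay below 0 as TPM and 12 with length and GC trends removed. The median over all genes was itself 0.038 as TPM and -0.0066 with trends removed. The core median minus that of all genes was 0.012 in the main fit, 0.014 as TPM and -0.023 with trends removed. The core median was 0.041 in set A and -0.028 in set B, and that of the 42 genes 0.022 and -0.043. In 1 of the 42, Psmc5, all knockouts lay below all wild types, which 3.77% of all genes did, and in 0 all lay above (3.27% of all genes). Psmc5 stood at 75.3, 76.5 and 82.9 in the wild types and 74.8, 75.2 and 69.1 in the knockouts, and the difference was -0.10 ± 0.076 (limma, adjusted p = 0.9999). The largest difference was that of Psme2, 0.31 ± 0.18, whose product forms the interferon-inducible activator together with that of Psme1. Its values were 2.99, 4.91 and 3.19 in the wild types and 3.60, 5.14 and 5.63 in the knockouts. The groups overlapped, and mice WT628 and KO969, both of set A, were the lowest of their groups. Psme1 showed the same 2 mice low, at 20.7, 29.2 and 25.2 against 21.2, 29.5 and 30.9, with a difference of 0.11 ± 0.18. Psme2b, a gene named as a copy of Psme2, gave -0.15 ± 0.12. No source used here says how reads shared by Psme2 and Psme2b were assigned, so the values of this pair are uncertain. Psmd3 gave 0.13 ± 0.087 and Psmd10, an assembly chaperone of the base, 0.10 ± 0.12. Psmd12, a lid subunit, gave -0.10 ± 0.090. Psmb7 stood at 88.5, 78.0 and 81.5 in the wild types and 81.2, 81.6 and 78.5 in the knockouts, which overlapped like those of Psmb5 and Psmb6 given below. For the constitutive catalytic subunits the 95% intervals of the difference were -0.17 to 0.20 (Psmb5), -0.14 to 0.18 (Psmb6) and -0.20 to 0.12 (Psmb7).

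**Figure D2:**
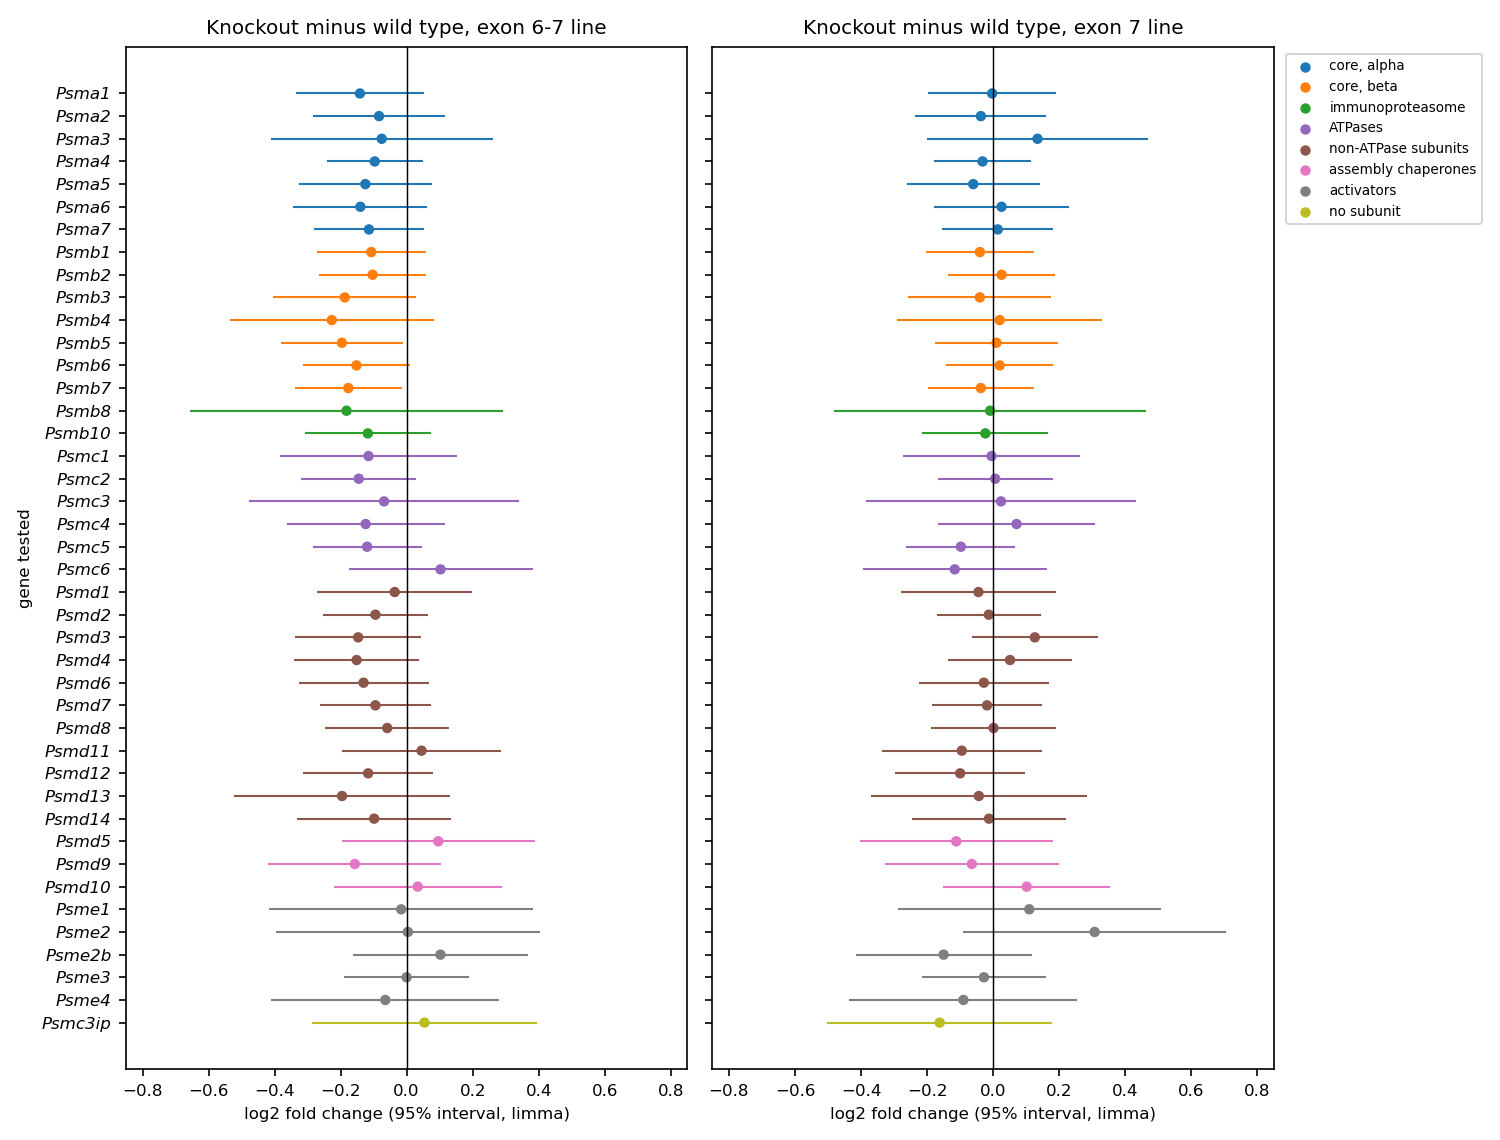
Knockout minus wild type in each line for the 42 proteasome genes tested, as log2 fold change with the 95% interval of limma, coloured by role. In the exon 6-7 line the 14 core subunits lie between -0.23 and -0.08, and in the exon 7 line between -0.06 and 0.13; no adjusted p passed 0.05.

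The difference of the knockout effects (exon 6-7 line minus exon 7 line) tests whether the knockout effects differed between the lines. Each deletion was present only in its own line, so the deletion and the line cannot be told apart here. The difference passed for 0 of the 42 genes and for 0.00704% of all genes. Its median was -0.14 over the core, with 14 of 14 subunits below 0, and -0.08 over the regulatory genes, against 0.0057 over all genes. The core median was -0.064 with length and GC trends removed and -0.076 with quantile normalization. The regulatory median was 0.010 without mouse KO776 (12 of 25 below 0), -0.029 without KO969, -0.035 with quantile normalization and -0.043 with quality weights. Over the 42 genes the median was -0.18 in set A and -0.05 in set B. Without adjustment, limma gave p below 0.05 for 1 proteasome gene and for 551 of all genes (3.88%). The smallest unadjusted p was that of Psmd3 (-0.27 ± 0.12, unadjusted p = 0.0474, limma adjusted p = 0.9998), followed by Psmb5 (-0.21) and Psmd4 (-0.20). The mean of the effects over both lines, which asks for a change common to the lines, passed for 0 of the 42 and for 0.0141% of all genes, with a median of -0.06. Psmb7 had the smallest p there (-0.11 ± 0.052, limma, unadjusted p = 0.0636, adjusted p = 0.9998).

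Immunoproteasome subunits were given apart because they replace the catalytic core subunits place by place: Psmb8 replaces Psmb5, Psmb9 replaces Psmb6 and Psmb10 replaces Psmb7. Their transcripts were far below those of the constitutive partners in all groups, in unequal proportion. Psmb10 was the most abundant, at 27.5, 27.4 and 27.9 scaled FPKM in the exon 6-7 wild types and 25.6, 25.5 and 25 in the knockouts. The 3 knockouts lay below the 3 wild types with a spread of less than 1 FPKM in each group, and the difference was -0.12 ± 0.087 (limma, adjusted p = 0.9998). In the exon 7 line it stood at 7.70, 9.49 and 8.5 against 7.75, 8.75 and 8.69, with overlap. Psmb8 stood at 3.35, 5.00 and 4.77 against 2.83, 3.13 and 5.53 in the exon 6-7 line and at 1.69, 1.67 and 1.38 against 1.92, 0.977 and 1.91 in the exon 7 line. Mouse KO864 was the highest of all 12 and KO990 the lowest, and the knockouts enclosed the wild-type range in both lines. Psmb9, at the edge of detection, stood at 1.2, 1.33 and 1.61 against 1.26, 0.710 and 1.09 in the exon 6-7 line and at 0.520, 0.308 and 0.217 against 0.596, 0.675 and 0.601 in the exon 7 line. All exon 7 knockouts lay above all exon 7 wild types, and in the exon 6-7 line the groups overlapped with KO777 lowest.

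Ratios within a library do not depend on the scaling between libraries, but they can still carry trends over transcript length and GC content. Psmb8 reached 2.94% ± 0.791, 2.94% ± 1.24, 2.79% ± 0.233 and 2.79% ± 0.889 of Psmb5 in the exon 6-7 wild types and knockouts and the exon 7 wild types and knockouts (SD, n = 3 each). Both genes were lower in the exon 7 line, and their ratio differed between the wild types by -0.04 on the log2 scale (exact permutation p = 1). Psmb9 reached 0.615% ± 0.124, 0.50% ± 0.123, 0.381% ± 0.170 and 0.676% ± 0.0823 of Psmb6 in the same order. Psmb10 reached 16.2% ± 0.373, 16.9% ± 0.858, 10.4% ± 1.73 and 10.4% ± 0.798 of Psmb7. This ratio was lower in each exon 7 wild type (8.70%, 12.2% and 10.4%) than in each exon 6-7 wild type (15.9%, 16.6% and 16.1%), by -0.65 on the log2 scale. With 3 mice against 3, the smallest two-sided p of an exact permutation test is 0.1, which this difference had. Of 15 such tests of ratios, none passed after Benjamini-Hochberg adjustment (lowest adjusted p = 0.5, exact permutation). With length and GC trends removed, Psmb10 differed by -0.76 and Psmb7 by -0.50 between the wild types, against -1.58 and -1.04 in the main fit. The ratios were not tested with these trends removed.

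**Figure D3:**
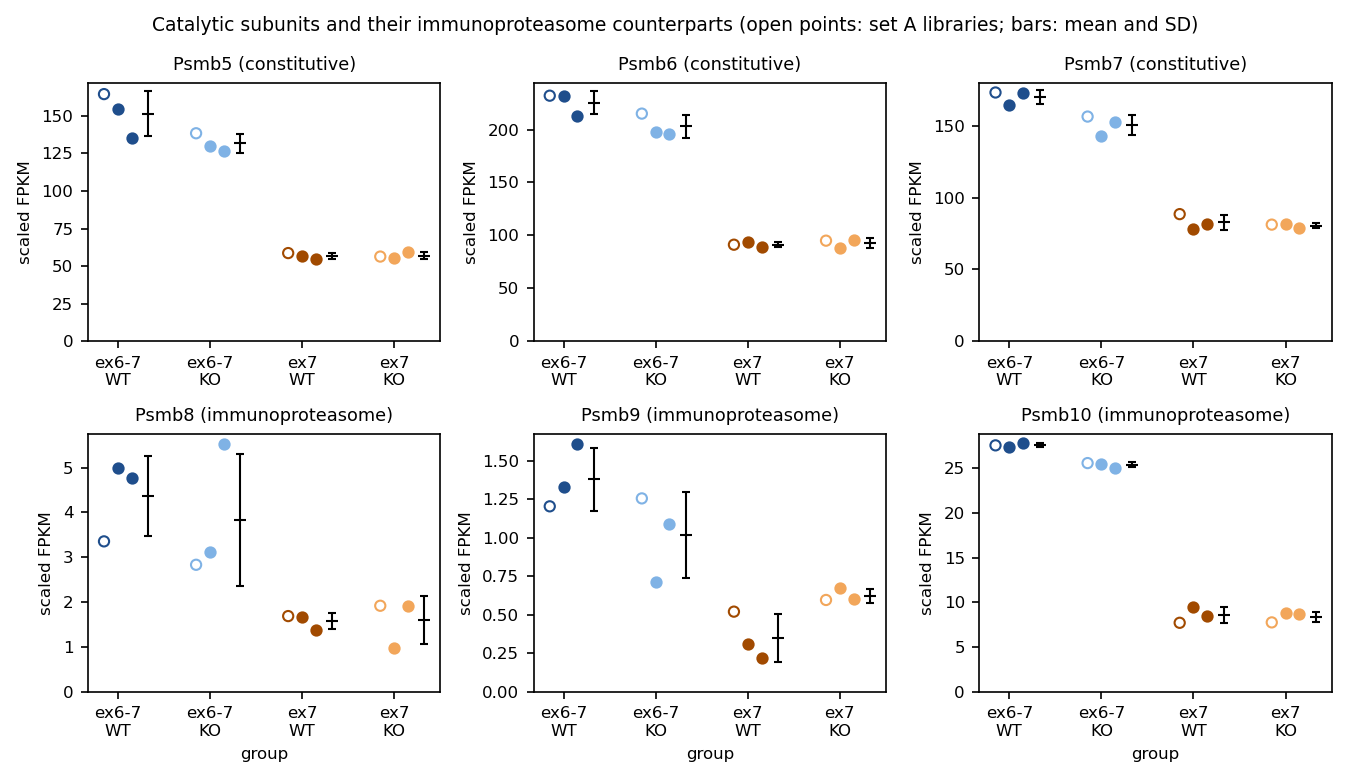
Scaled FPKM of the 3 constitutive catalytic subunits (top) and their immunoproteasome counterparts (bottom) in each mouse, on axes that start at 0; open points are the set A libraries, and black bars give the mean and SD of 3 mice. Psmb10 falls into a band of 25 to 27.9 in exon 6-7 mice and of 7.70 to 9.49 in exon 7 mice, whereas Psmb8 spreads from 2.83 to 5.53 and from 0.977 to 1.92.

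Promoter sequence was looked at because NRF1 and NRF2, which bind antioxidant response elements, are known to drive the constitutive genes. RefSeq windows of 300 bases (250 before and 50 after the start, GRCm38.p6) were matched by symbol for 38 of the 45 genes, 37 without Psmc3ip. A gene can have several windows, and it counts as holding a motif where any of them does. The antioxidant response core TGACNNNGC, on either strand, was found in 6 of the 37 genes (Psmb5, Psmb6, Psmc6, Psmd9, Psmd12 and Psme4), or 16.2%, and in 13.99% of all 27025 genes with a window. The 2 stretches below show the matches in the catalytic subunits Psmb5 and Psmb6. Capitals mark the match, and bases are written 5′ to 3′ on the gene's strand.
Psmb5, chr14:54618023-54618078, minus strand: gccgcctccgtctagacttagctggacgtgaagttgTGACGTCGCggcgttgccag
Psmb6, chr11:70525277-70525356, plus strand: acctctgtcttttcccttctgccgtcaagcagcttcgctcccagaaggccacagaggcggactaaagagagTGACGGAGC
Counted from the RefSeq start, with -1 the base before it, the matches span -47 to -39 in Psmb5 and -9 to -1 in Psmb6. In the GENCODE M21 annotation both stretches lie before the first exon. The GC box GGGCGG (either strand) was found in 22 of the 37 genes, 59.5% against 38.2% of all genes with a window, and in 16 of the 22 regulatory ones. The CCAAT box (either strand) was found in 14 of the 37, 37.8% against 41.1%. The TATA box TATAAA (either strand) was found in 4 (Psmb4, Psmb8, Psmd1 and Psmd6), 10.8% against 15.7%, and the interferon-stimulated core (GAAA, any 2 bases, GAAA, on either strand) in 4 (Psmb3, Psmd4, Psmd9 and Psme1), 10.8% against 3.99%. No 2 of these motifs contain each other. A match is a stretch of letters and no evidence of binding.

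The largest differences of proteasome genes were between the wild types of the lines. In the exon 7 wild types 35 of the 42 genes were lower than in the exon 6-7 wild types and 3 were higher (limma, adjusted p below 0.05), in a comparison in which 33.2% of all genes were lower and 33.9% higher (67.1% in either direction). The median difference was -0.80 over the 42 genes, -1.29 over core beta, -0.79 over core alpha, -0.83 over the ATPases, -0.66 over the non-ATPase subunits and -1.12 over the 5 activators, against -0.0052 over all genes. The line, and whatever else differed between the lines in breeding, tissue handling or sequencing, cannot be told apart. Mitochondrial transcripts took 6.22 to 7.39% of the summed FPKM in exon 6-7 mice, against 10.3 to 14.3% in exon 7 mice.

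All 14 core subunits were lower. Psmb6, the most abundant core gene, stood at 232, 232 and 213 scaled FPKM in the exon 6-7 wild types and at 91.2, 93.8 and 89.1 in the exon 7 wild types, a difference of -1.29 ± 0.075 (limma, adjusted p = 6.05e-08). Psmb5 stood at 165, 155 and 135 against 58.6, 56.4 and 54.6, a difference of -1.40 ± 0.085. Psma7 stood at 199, 196 and 179.7 against 72.0, 82.7 and 80.8, and Psmb4 had the largest difference of the core (-1.72 ± 0.14). In these 4 genes, the lowest exon 6-7 mouse lay above the highest exon 7 mouse by a wide margin, knockouts included. The knockouts of the exon 7 line lay with their wild types: Psmb6 at 95, 87.6 and 95.5 and Psmb5 at 56.3, 55.1 and 59.5. Psmb1 (-1.13), Psmb7 (-1.04) and Psmb3 (-1.34) were among the 10 proteasome genes of smallest p. The smallest core differences were those of Psma3 (-0.51 ± 0.15) and Psma2 (-0.73 ± 0.091), and the Psma3 ranges overlapped, at 37.4, 36.5 and 30.6 against 30.8, 23.7 and 19.1.

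Psmb10 had the smallest p of all proteasome genes, with -1.58 ± 0.087 (adjusted p = 5.04e-08) and the values given above. Psmb8 was lower too, -1.05 ± 0.22 (adjusted p = 0.00103). Psmb9, tested only with no filter on low values, gave -0.82 ± 0.12 (limma, adjusted p = 2.25e-04).

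Of the 25 regulatory genes 18 were lower and 3 higher. Psmd4, the ubiquitin receptor, stood at 140.4, 151 and 142 in the exon 6-7 wild types and 57.8, 66.1 and 61.3 in the exon 7 wild types, a difference of -1.21 ± 0.087. Psmc5 (-0.997 ± 0.076) and Psmc2 (-1.01) were the ATPases of smallest p. Psmc3, the most abundant ATPase, stood at 147, 166 and 173 against 78.0, 111 and 122, a difference of -0.66 ± 0.19 (adjusted p = 0.00772). Mouse WT628 lay apart from the other exon 7 wild types, and of the exon 7 knockouts (79.2, 126 and 111) mouse KO969 did so. Both are set A libraries. The higher genes were Psme4, which encodes a large activator that needs no ATP, Psmd11, a lid subunit that clamps the lid to the core, and Psme3, which encodes the nuclear relative of Psme1. Psme4 stood at 9.31, 9.20 and 7.44 against 19.7, 13.4 and 14.4 (0.79 ± 0.16), Psmd11 at 26.5, 19.8 and 21.5 against 30.6, 33 and 34.7 (0.53 ± 0.11), and Psme3 at 40.9, 38.1 and 40.0 against 49.1, 45.4 and 48.3 (0.26 ± 0.086, adjusted p = 0.0196). These were the 3 proteasome genes in which all exon 7 wild types lay above all exon 6-7 wild types, as 35.6% of all genes did, while 34 lay wholly below, as 34.6% of all genes did. Psme3 lost its call without mouse WT809, WT628 or WT999 (adjusted p = 0.0677, 0.0518 and 0.0523) and with FPKM as deposited. Psme1 and Psme2 were lower, with differences of -1.12 ± 0.18 and -1.61 ± 0.18. In the exon 6-7 line Psme1 stood at 44.9, 64.0 and 58.0 in the wild types and 44.8, 60.5 and 59.3 in the knockouts, with the set A mice lowest, and Psme2 at 13.1, 14.4 and 12.0 against 10.6, 14.3 and 14.9. All of these values lie above those of the exon 7 mice. The scaffold subunit Psmd1 (0.0022), Psmd12 (-0.19), Psmc6 (0.10) and the assembly chaperone Psmd5 (0.25) did not pass. The other assembly chaperones, Psmd9 (-0.80) and Psmd10 (-0.74), were lower, and so was Psmc3ip (-0.90).

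The tissue-specific core genes were near 0 in all mice. Psma8, a testis subunit, reached at most 0.221 scaled FPKM and Psmb11, a subunit of thymic epithelium, at most 0.132. Each was listed in 11 of 12 libraries.

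Transcript length moved with this difference. Across all 14053 genes with a length in GENCODE M21, the Spearman correlation of the log2 difference with length was 0.68, and across the 42 proteasome genes it was 0.72 (across genes of the same 6 libraries, which are no independent replicates). Proteasome transcripts are short, with a median of 1490 bases against 2918. Among genes under 1000 bases, the median difference was -1.29 for 7 proteasome genes and -0.95 for all genes, and 69.7% of all were lower. From 1000 to 1500 bases it was -0.95 for 14 proteasome genes and -0.76 for all, and 73.9% of all were lower. From 1500 to 2000 bases it was -0.74 for 10 and -0.50 for all. From 2000 to 3000 bases it was -0.44 for 8 and -0.18 for all. At 3000 bases or more, 3 proteasome genes had a median of 0.25, against 0.48. The proteasome medians were below those of all genes in each of these length classes.

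**Figure D4:**
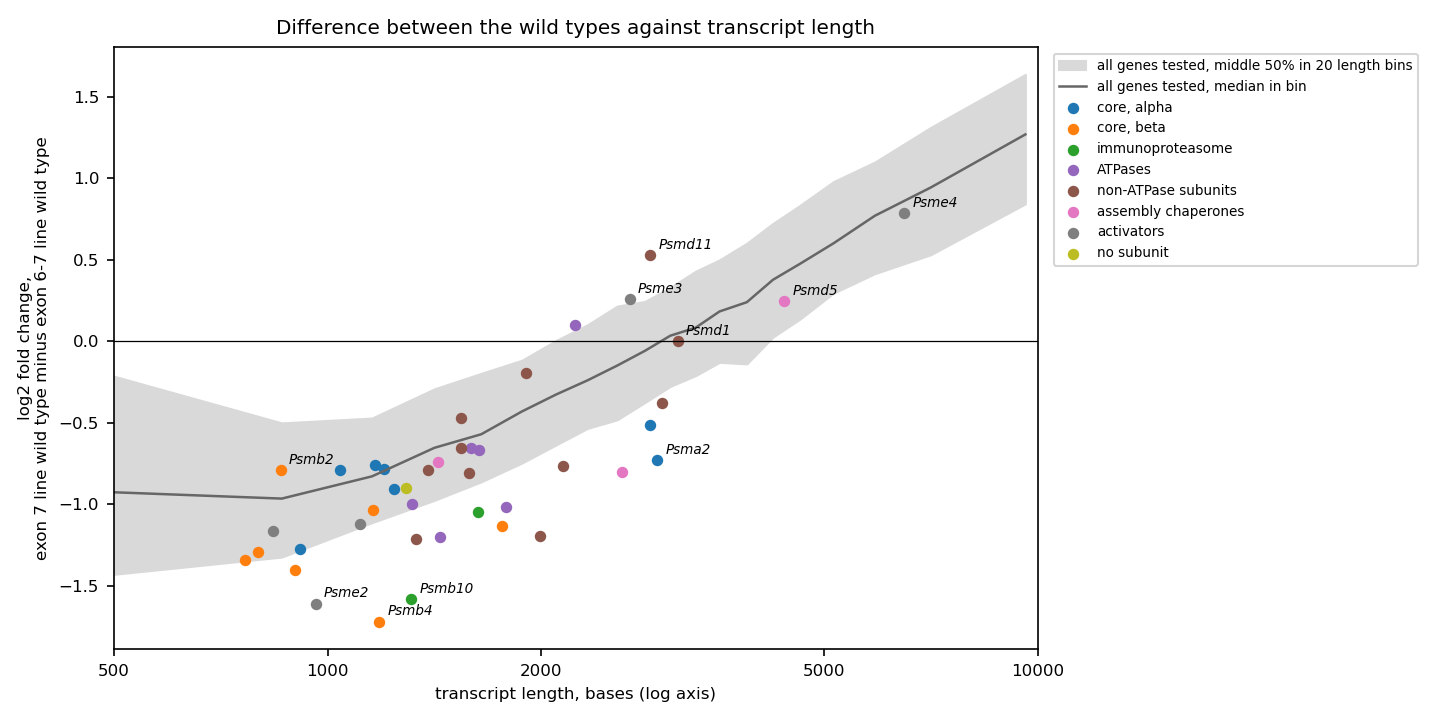
Log2 difference between the wild types (exon 7 line minus exon 6-7 line) against transcript length (log axis) for the 42 proteasome genes, coloured by role, over the median (line) and the middle 50% (grey) of all genes tested in 20 length bins. Points and line rise together; Psmd11 lies above the grey band at 0.53, and Psmb4 and Psmb10 below it at -1.72 and -1.58.

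With trends over length and GC content removed from each library, 29 of the 42 proteasome genes were lower and 2 higher (45.9% of all genes passed in either direction), and the median difference was -0.40. The 28 genes lower in both fits include Psmb10 (-0.76), Psmb4 (-1.03), Psmb1 (-0.98), Psmc2 (-0.77), Psmb5 (-0.39) and Psmb6 (-0.30). Psmb2, Psmb8, Psmc1, Psmc3, Psmc3ip, Psmd8 and Psme1 no longer passed, and Psmd1 now did. Signs turned for Psme4 (0.79 to -0.21), Psmd8 (-0.47 to 0.12), Psmd5 (0.25 to -0.34), Psmc6 (0.10 to -0.14) and Psmd1 (0.0022 to -0.23), of which only Psmd1 passed with trends removed, whereas Psmd11 (0.39) and Psme3 (0.26) remained higher. The length used is that of 1 annotated transcript per gene, which may differ from the one the authors used. Within set A the median difference of the 42 genes was -0.91 and within set B -0.81. The knockout differences followed length less closely. The Spearman correlation was 0.36 over all genes and 0.31 over the proteasome genes in the exon 6-7 line, and -0.18 and -0.29 in the exon 7 line. With the trends removed, the core median of the exon 6-7 knockout was -0.11, against -0.013 over all genes. The core median minus that of all genes was then -0.10, against -0.13 in the main fit. For the regulatory genes it was -0.059, against -0.092.

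The partners of the proteasome were read from lists of related genes. No gene of these 4 lists passed in either knockout comparison, out of 44 tested. The counts between the wild types below are to be read beside the 33.2% of all genes that were lower and the 33.9% that were higher. These shares moved with transcript length: 69.7% of all genes under 1000 bases were lower, against 9.61% of those of 3000 bases or more. The lists, markers included, were read from the main fit only, and the part of transcript length in their values was not tested. Of 13 assembly factors and partners, 9 were lower and 2 higher in the exon 7 wild types, with a median of -0.75. Pomp, the maturation factor of the core, stood at 178 to 203 scaled FPKM in the exon 6-7 wild types and 65.1 to 68.9 in the exon 7 wild types (-1.48), and the core chaperone gene Psmg3 differed by -1.83. Of 13 genes for ubiquitin supply and shuttling, 6 were higher and 4 lower. The ubiquitin fusion gene Rps27a (-0.81) was lower, while the activating enzyme Uba6 (1.86) and the shuttle Rad23b (1.02) were higher. Of 6 transcription factors and related genes tested, 1 was higher, Nfya (1.48). Nfe2l1, which encodes NRF1, stood at 79.2 to 91.8 and 95.2 to 100.2 (0.15, limma adjusted p = 0.109). Of 12 genes of class I antigen presentation and interferon response, 6 were lower and 3 higher, among them H2-K1 (-1.20), H2-D1 (-0.95) and the peptide transporter Tap2 (-0.56) lower and the peptidase Erap1 (0.73) higher. Microglial markers, which mark cells in which the immunoproteasome is known to be expressed, were lower for 9 of 12 and higher for 1 (median -0.80), with sums of 373 to 419 and 227 to 248. Among them C1qa stood at 55.8 to 65.5 and 25.1 to 35.0, but Cx3cr1 at 9.65 to 14.2 and 13.8 to 16.6. Other marker lists went both ways. Oligodendrocyte markers were lower for 4 of 6 and higher for 0, and blood markers lower for 2 of 3 and higher for 0. Hippocampal neuron markers were higher for 5 of 8 and lower for 1, and endothelial markers higher for 4 of 6 and lower for 2. The part of microglia in the values of Psmb8 to Psmb10 was not tested.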

How the data were processed

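Poly(A) RNA of hippocampi from 12 mice was sequenced, and the authors deposited 1 table of FPKM values per mouse, per the file headers. CASAVA, GSNAP, Cufflinks and mm10 are named in the submitters' processing notes, without roles. No source used here gives strand or multi-read settings. Read totals cannot be taken from these values, so no counting error is attached.

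Unlisted genes were set to 0. Scaling between libraries used the median of ratios over 12511 genes (factors 0.919 to 1.07), small RNAs were left out (115 genes), and the 14213 genes whose mean reached 1 FPKM were tested with limma 3.58.1 (limma-trend, R 4.3.3) on log2(FPKM + 1), with 4 group means, 8 residual degrees of freedom, prior 3.88, two-sided, adjusted over all genes tested. For 8 genes and 3 ratios, exact permutation tests were added (20 relabellings within a line, 400 over both). Replicates are separate mice, and at most 0.00546% of values were equal between libraries. Genes and lists were chosen with earlier results of these data known. Named genes are those of smallest p per comparison, the highest and lowest of each role, and the catalytic and immunoproteasome subunits with Psme1 and Psme2. Other genes the text singles out, such as Psmb4, Psma2 and Psmd3 in the exon 6-7 line, were picked once their values were known. The settings varied were the pseudocount (0.1, 5), the filter (none, 5 FPKM) and the scaling (none, quantile, TPM). Further alternatives were a fit of the compared groups alone, quality weights, robust moderation, a library set term, removal of length and GC trends (mgcv 1.9.3), and omission of each mouse. The limma steps were tested on simulated data. Plots used Python 3.11.15 and matplotlib 3.10.9. A gene of the related lists and a promoter motif are not reported here.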

Additional observations from a re-analysis of the deposited data

Results flagged for a closer look

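For 3 results an unadjusted test of the difference of the knockout effects (exon 6-7 line minus exon 7 line, log2) gave p below 0.05. None passed an adjusted test. By limma, 1 of the 42 proteasome genes and 551 of all genes tested (3.88%) had an unadjusted p below 0.05 there. Psmd3, a lid subunit, gave -0.27 (limma, unadjusted p = 0.0474, adjusted p = 0.9998), with knockouts lower than wild types in the exon 6-7 line and overlapping in the exon 7 line. Psmb9, the least abundant immunoproteasome subunit, gave -0.52 (exact permutation p = 0.01 over 400 relabellings; limma with no filter, adjusted p = 0.969). Its wild types of the exon 7 line were the lowest group at 0.217 to 0.520 scaled FPKM. The ratio of Psmb9 to Psmb6, which uses the same Psmb9 values and is no separate result, gave -1.23 (exact permutation p = 0.035, adjusted over 15 ratio tests 0.5).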

How the results depend on the processing

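No paired analysis was possible because no mouse number is shared between groups. The counts of proteasome genes that passed were 0 in the knockout comparisons under all alternatives run (18 within each line, 23 over both), and stayed within 1.5 times the value of 38 between the wild types. The median over the 42 genes moved by more than the spread between mice in these cases. For the exon 6-7 knockout it was -0.028 with quantile normalization and -0.054 with TPM, for the mean of both knockouts -0.0058 with quantile normalization, and for the exon 7 knockout it ran from -0.067 to 0.0019 as each mouse was left out. Between the wild types it was -0.74 with a pseudocount of 5, -0.94 with FPKM as deposited, -0.61 with quantile normalization, -0.66 with TPM and -0.40 with length and GC trends removed. As deposited and as TPM, the median over all genes itself lay at -0.14 and 0.13 between the wild types. For the exon 6-7 knockout it lay at 0.050 as TPM. The median of the 42 genes minus that of all genes was -0.105 there, against -0.109 in the main fit.

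Signs of single genes turned as follows. In the exon 6-7 line Psme1 turned to 0.047 (quantile), 0.039 (TPM), 0.012 (quality weights) and 0.052 (trends removed), with -0.16 to 0.12 over left-out mice, and Psme2 to -0.0027 (quantile), with -0.081 to 0.14. In the exon 7 line Psmb6 turned to -0.018 (quality weights) and -0.036 (trends removed), with -0.0013 to 0.060 over left-out mice, and Psmb5 to -0.045 (trends removed), with -0.021 to 0.037. Psmb8 turned to 0.0017 (pseudocount 5) and 0.018 (TPM), with -0.10 to 0.18, Psmb7 to 0.011 (TPM) and 0.0012 (quality weights), with -0.078 to 0.012, and Psmb10 to 0.021 (TPM), with -0.089 to 0.045. Psme1 there ran from -0.015 to 0.27. In the difference of the knockouts Psmb10 was 0.030 with trends removed and Psme1 ran from -0.29 to 0.011, and in their mean Psme1 ran from -0.026 to 0.13. Between the wild types, trend removal turned Psme4, called higher at 0.79, to -0.21, Psmd8, called lower at -0.47, to 0.12, and Psmd5 from 0.25 to -0.34, and none of these 3 passed there. The cause was not tested. FPKM keep no read totals, so depth limits cannot be given, and Psma8 and Psmb11 are too low for a statement on their change. Psmb9 lies below the filter, and its values rest on the fit with no filter and on permutation.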
